A study of Homo sapiens with 8 samples.

Results

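The genes described here are 59 that encode the machinery of DNA replication and the regulators of the passage from G1 into S phase. They were picked by symbol from a list of replication, nucleotide supply, cyclin, kinase and E2F genes. Each symbol matched 1 Ensembl identifier among the 57500 genes of the count table. All 59 were among the 19171 genes with enough reads to be tested, and the lowest raw count of any of them in a library was 82.

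RNAseq was performed on HEK293T, a line derived from human embryonic kidney that carries the SV40 large T antigen. DZNep (3-deazaneplanocin A) is an adenosine analog. It inhibits AHCY, the enzyme that clears S-adenosylhomocysteine, a product of methyltransferases that blocks them. The DZNep group (100 µM, 48 h) held 4 libraries and the Control group, given vehicle for the same time, held another 4, with the replicates numbered 1 to 4 in both. The genotype was the same in both groups and a single line was used. The sample labels name DMEM as the medium and the methods name RPMI.

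In G1, the origin recognition complex marks origins, and CDC6 and CDT1 load the MCM helicase there, a step called licensing. In S phase, the kinases CDC7 and CDK2 start the helicase with CDC45 and the GINS complex, and polymerases copy the strands behind it. Many of these genes are targets of E2F transcription factors. RB1 holds E2F back until cyclin-dependent kinases phosphorylate it, and the large T antigen binds proteins of the RB family.

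The libraries held 25043058 to 44902779 counts. Mitochondrial genes took 7.76% and 13.7% of the counts in Control replicates 1 and 4, and 3.02% and 3.16% in replicates 2 and 3. In DZNep the corresponding shares were 7.04% and 10.1%, and 4.25% and 4.44%. All 7 genes listed as marks of HEK293T (such as VIM, NEFL and CDH2) were detected in every library, the lowest at a normalized count of 207. Of the 7, KRT8 and KRT18 rose and PAX2 fell. Over 12 markers of other cell types, the summed normalized count ranged from 4135 to 8220 in Control and from 2911 to 7206 in DZNep. COL1A1 was the highest of these, at 2248 to 4386 in Control and 2365 to 4682 in DZNep. COL1A2 was at 898 to 2167 in Control, and at 1647, 15.3, 1072 and 1550 in DZNep replicates 1 to 4. The leukocyte marker PTPRC stayed between 36.7 and 77.7, and the T cell marker CD3E had 0 reads in every Control library and 9, 21, 18 and 36 in DZNep replicates 1 to 4. Of the 12, the endothelial gene VWF (5.19 on the log2 scale) and the smooth muscle gene MYH11 (1.31) rose with DZNep, while the smooth muscle actin ACTA2 fell by 2.75. The part of these genes in the results was not tested. In bulk RNA, fewer cells in S phase and less RNA per cell cannot be told apart.

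The start sites of several members are shown first, because E2F proteins bind short GC-rich motifs there. The motifs TTTCGCGC, TTTGGCGC, TTTCCCGC and TTTGCCGC were searched on both strands. Those ending in GCGC can overlap a match on the other strand, and such matches were counted separately. The windows ran from 250 bases before to 50 after each start in RefSeq (GRCh38.p14). A window was given for 50 of the 59 genes, of which 14 had several. The 9 without a window were MCM4, MCM5, GINS4, POLD3, RPA2, RPA3, CCNE2, CCND1 and CDK2. Only MCM5 among them passed the test given below, and it rose, so the motif counts leave out a gene that rose and none that fell. Of the 50 genes, 26 (52.0%) held at least 1 motif, against 1090 of all 27305 genes with a window (3.99%).
Each stretch below ends at or before a RefSeq start, which can differ from the GENCODE start. The POLA2 stretch holds 16 bases of GENCODE exons of POLA2 and overlaps an exon of ENSG00000285816. That of CDC7 lies inside the GENCODE gene, which starts at 91500851, but in none of its exons. The stretches are shown for the E2F genes, POLA2, PCNA and CDC7, written 5′ to 3′ on the strand of the gene. Each motif or its reverse complement is in capitals.
POLA2 (chr11:65261864-65261928, + strand): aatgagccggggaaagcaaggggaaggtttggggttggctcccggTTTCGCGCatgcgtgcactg
E2F1 (chr20:33686386-33686463, - strand): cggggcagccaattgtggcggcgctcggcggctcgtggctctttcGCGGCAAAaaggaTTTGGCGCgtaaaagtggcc
E2F2 (chr1:23531256-23531320, - strand): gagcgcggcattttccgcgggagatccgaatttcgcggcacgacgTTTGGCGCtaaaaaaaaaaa
E2F3 (chr6:20401781-20401845, + strand): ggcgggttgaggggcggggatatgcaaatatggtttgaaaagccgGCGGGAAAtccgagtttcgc
PCNA (chr20:5126662-5126726, - strand): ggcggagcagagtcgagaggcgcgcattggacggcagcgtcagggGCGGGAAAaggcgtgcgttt
CDC7 (chr1:91500999-91501097, + strand): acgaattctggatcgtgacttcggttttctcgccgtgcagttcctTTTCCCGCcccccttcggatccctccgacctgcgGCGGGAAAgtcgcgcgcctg

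The first 5 of these genes fell with DZNep and CDC7 rose, as given below. Of the 26 genes with a motif, 8 (30.8%) fell and 1 (CDC7, 3.85%) rose, and the median log2 fold change was -0.22. Of the 24 genes with a window and no motif, 5 (20.8%) fell and 4 (16.7%) rose, and the median was 0.10. Of all genes tested, 21.8% fell and 19.1% rose. The motif was present in the windows of MCM2, CDC6, CDT1 and RFC3 too, which did not pass the test. These counts describe letters in a window, and no difference between the sets was tested.

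**Figure D1:**
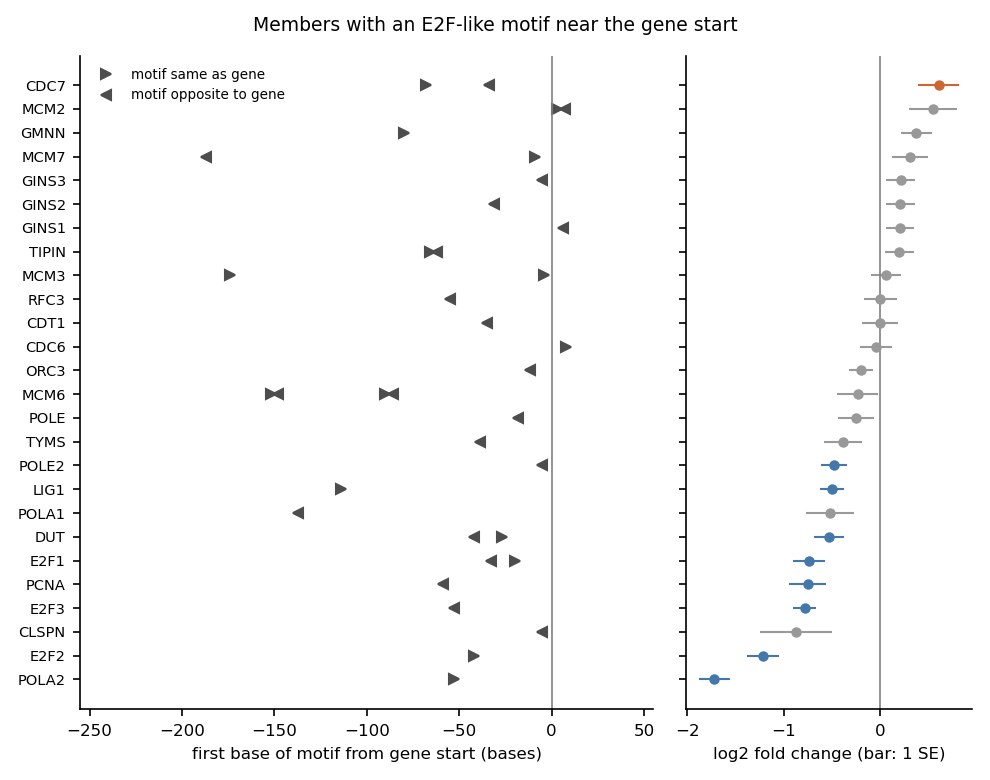
The left panel plots the first base of each motif match against its distance from the start of the gene in bases, for the 26 genes with a motif, and arrowheads give the strand. The right panel plots the log2 fold change of the same genes, DZNep over Control, with 1 standard error. Among these 26 genes, POLA2 at -1.72 lies at 1 end and CDC7 at 0.60 at the other. Genes with a window and no motif, such as FEN1 (0.93) and TK1 (0.86), are not drawn.

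Members were more often lower than higher after DZNep, and most changes were small. At an adjusted p-value under 0.05 (edgeR's quasi-likelihood test, Benjamini-Hochberg over all genes tested), 13 of the 59 genes fell, 6 rose and 40 did not pass. The lower share was 22.0% against 21.8% of all genes tested, and the higher share was 10.2% against 19.1%. With an absolute log2 fold change over 1 as well, 2 genes (3.39%) fell, POLA2 and E2F2, and none rose, against 13.5% and 10.6% of all genes. With the replicate number as a block, 21 members (35.6%) fell and 14 (23.7%) rose, against 30.2% and 28.8% of all genes. The share that fell was thus close to the background without the block and above it with the block, and the share that rose was below it in both. No difference from the background was tested.

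The log2 fold changes ranged from -1.72 (POLA2) to 0.93 (FEN1). Their median was -0.12, against -0.03 over all genes tested, and the median absolute value was 0.34 against 0.54. An absolute log2 fold change over 1 was found in 3.39% of the members and in 26.7% of all genes. The 4 DZNep libraries lay wholly below the 4 Control libraries for 13 members (22.0%) and wholly above for 8 (13.6%), against 19.4% and 19.5% of all genes. Per replicate number, 19 members (32.2%) were lower in all 4 pairs and 18 (30.5%) were higher in all 4, against 31.6% and 33.8% of all genes, so both were near the background.

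**Figure D2:**
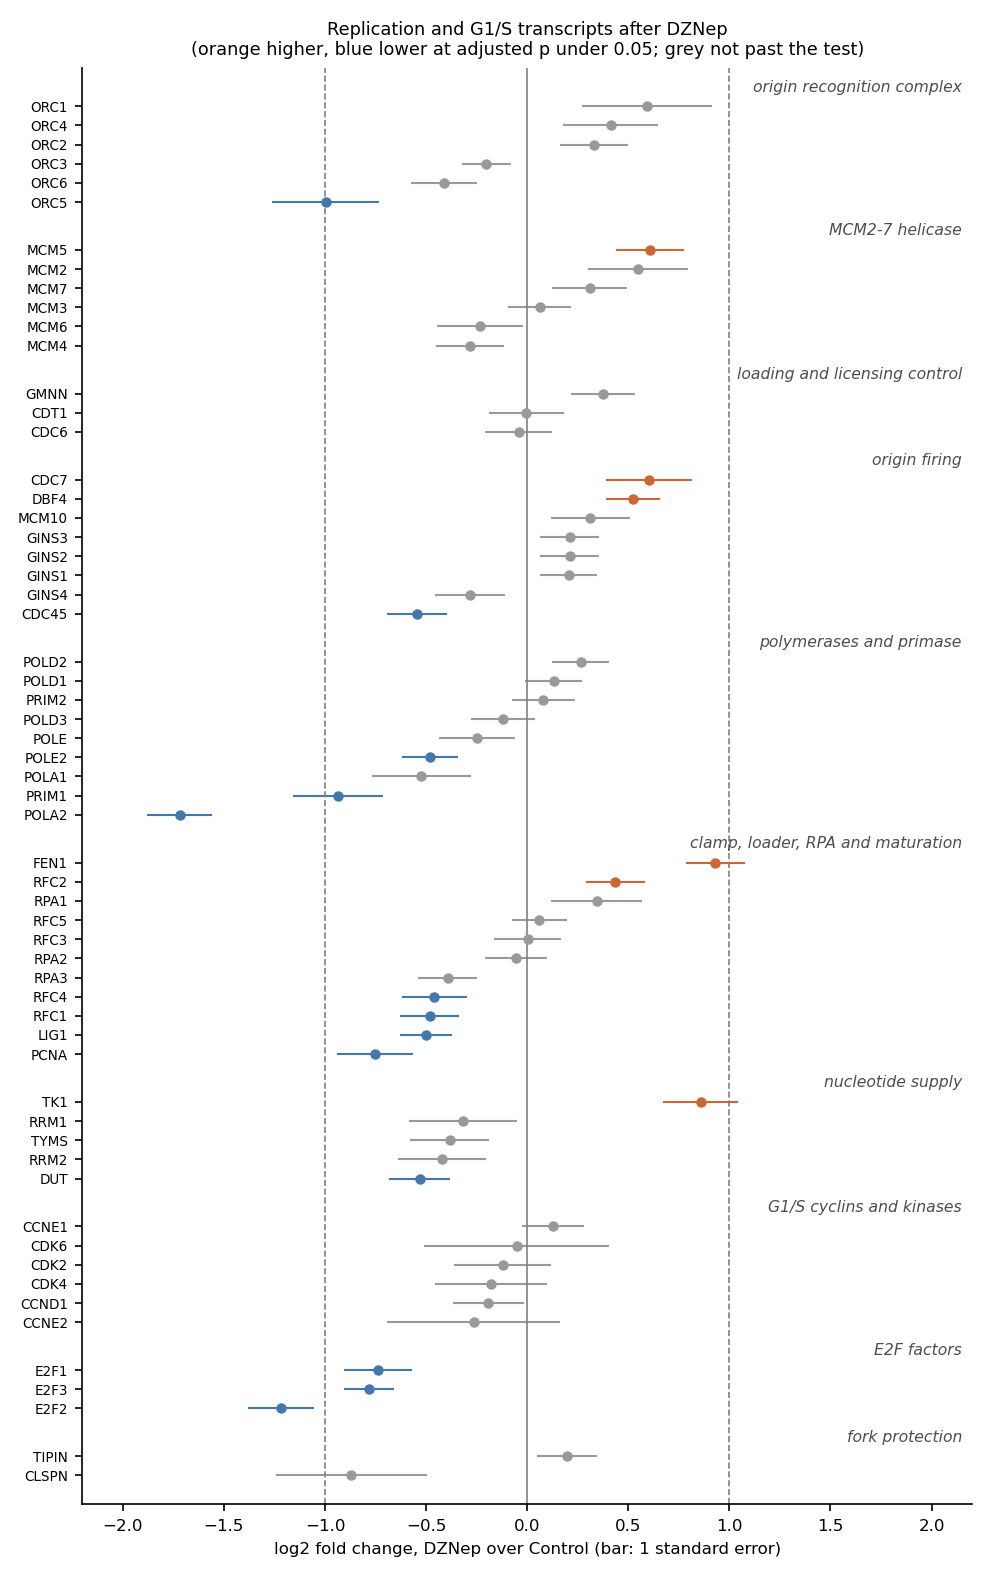
Each point is the log2 fold change of 1 gene, DZNep over Control, with a bar of 1 standard error, and the genes are set in functional groups. Orange points are the 6 genes that rose, blue points the 13 that fell and grey points the 40 that did not pass the test. Only POLA2 and E2F2 lie beyond the dashed line at -1.

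**Figure D3:**
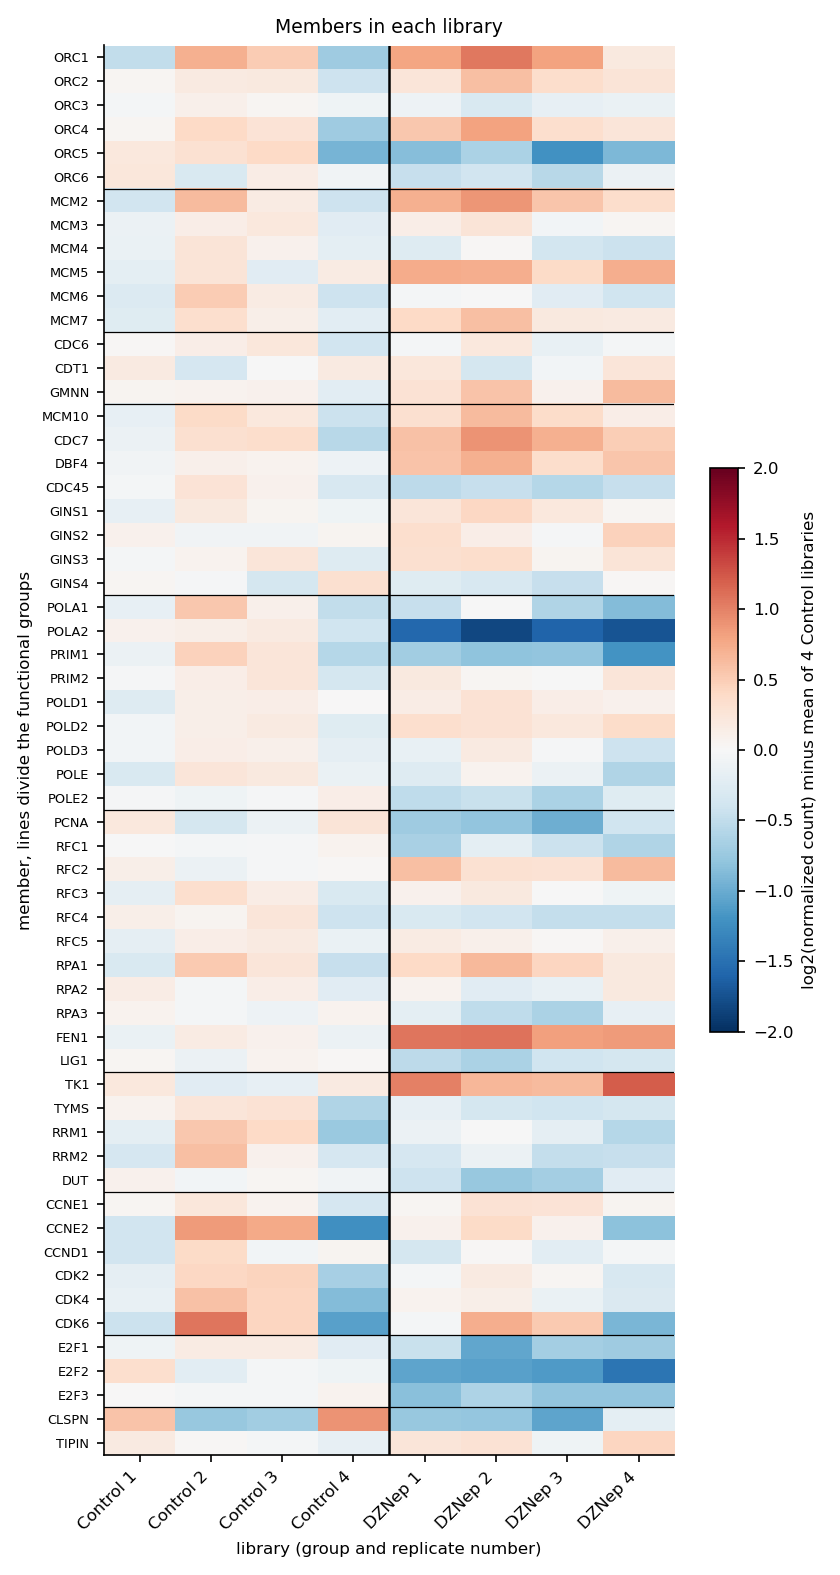
Colours give the log2 normalized count of each gene (rows) in each of the 8 libraries (columns), minus the mean of the 4 Control libraries, from blue (lower) to red (higher). The rows of E2F1, E2F2, E2F3, POLA2 and PRIM1 are blue in every DZNep library, and those of FEN1 and TK1 are red. Control replicates 1 and 4 are bluer than 2 and 3 in many rows.

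All 3 activator E2F genes fell, against 21.8% of all genes tested. E2F2 (chr1:23506438-23531233 in GRCh38) had normalized counts of 3541, 2424, 2712 and 2624 in Control replicates 1 to 4 and 1340, 1314, 1270 and 1020 in DZNep replicates 1 to 4. The groups did not overlap, and every DZNep library was below the lowest Control library by a wide margin. The fall was 1.22 on the log2 scale (log2 fold change -1.22 ± 0.16, SE), with an adjusted p of 0.000304 in edgeR's quasi-likelihood test.
E2F1 (chr20:33675477-33686385), the founding factor of the family, had 1441, 1723, 1716 and 1309 in Control and 1132, 744, 963 and 940 in DZNep. The highest DZNep value lay just under the lowest Control value, and the fold change was -0.74 ± 0.17 (adjusted p = 0.00573, edgeR). E2F3 (chr6:20401879-20493714) varied least of the 3, from 3132 to 3378 in Control and from 1800 to 2106 in DZNep. The 2 groups were well apart, with a log2 fold change of -0.78 ± 0.12 (adjusted p = 0.000696, edgeR). All 3 passed the test under each of the 15 alternatives tried.

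Of the 9 genes of polymerases and primase, 3 (33.3%) fell and none rose, against 21.8% and 19.1% of all genes tested. The polymerase alpha-primase complex makes the RNA-DNA primers on both strands. Of its 4 subunits, POLA2 and PRIM1 fell and POLA1 and PRIM2 did not pass the test. POLA2, the accessory subunit (chr11:65261913-65305959), held 3829, 3922, 4097 and 2733 normalized counts in Control and 1216, 1021, 1188 and 1084 in DZNep. Its groups were far apart, the mean going from 3645 ± 618 to 1127 ± 90.6 (SD, n = 4 each). The fitted level was 3.29-fold lower. Its log2 fold change, -1.72 ± 0.16 (adjusted p = 4.51e-05, edgeR), was the furthest from 0 of the 59.
PRIM1, the catalytic primase subunit (chr12:56730438-56752374), held 2262, 3368, 2909 and 1650 in Control and 1513, 1412, 1428 and 1070 in DZNep. The groups did not overlap although Control was spread widely, and the fold change was -0.94 ± 0.22 (adjusted p = 0.00719, edgeR). The exons of NACA on the same strand cover 4.2% of the exon length of PRIM1. NACA had 320706 counts in all against 16048 for PRIM1, and the part of this overlap was not tested. POLA1, the catalytic polymerase subunit, held 2929, 4761, 3505 and 2328 in Control and 2382, 3257, 2153 and 1790 in DZNep. It was lower within every replicate number while the groups overlapped. Its log2 fold change was -0.52 ± 0.25, with an adjusted p of 0.116 in edgeR's test, 0.00143 with the replicate block and 0.0422 without Control replicate 4. PRIM2, the regulatory primase subunit, had a log2 fold change of 0.08 ± 0.15 (adjusted p = 0.712, edgeR), with 1170 to 1750 normalized counts in Control and 1485 to 1755 in DZNep.

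Of the 5 members for the polymerases that extend the primers, POLE2 alone passed the test. Among the other replication genes, POLE4 rose by 0.91 on the log2 scale (SE 0.23, adjusted p = 0.00893, edgeR), and its groups did not overlap. POLE3 was at 0.48 (adjusted p = 0.0532, or 0.00292 with the block, edgeR) and POLD4 at -0.12 (0.631), neither past the test without the block. The groups of POLE3 did not overlap either, with DZNep higher. POLE2, a subunit of the leading-strand polymerase epsilon, fell by 0.48 on the log2 scale (SE 0.14, adjusted p = 0.0180, edgeR), from 725 to 839 normalized counts in Control to 494 to 646 in DZNep. Its adjusted p was 0.0701 and 0.0615 without DZNep replicates 1 and 3, and 0.0871 with every gene of at least 1 read tested. POLE, its catalytic subunit, was at -0.25 and did not pass. Polymerase delta copies the lagging strand, and its POLD1, POLD2 and POLD3 were at 0.13, 0.26 and -0.12, none past the test. POLD2 had the highest fold change of the 9, with 7353, 8355, 8642 and 6516 in Control and 9683, 9385, 8872 and 9839 in DZNep. Its groups did not overlap, but the adjusted p was 0.165 in edgeR's test and 0.0670 with the block.

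Of the 11 genes for the sliding clamp, its loader, the single-strand binding protein RPA and Okazaki fragment maturation, 4 (36.4%) fell and 2 (18.2%) rose. The shares over all genes tested were 21.8% and 19.1%. PCNA (chr20:5114953-5126626), the clamp that tethers polymerases to DNA, had 11947, 8085, 9465 and 12252 normalized counts in Control and 6285, 5975, 5212 and 7820 in DZNep. The groups did not overlap. Replicates 1 and 4 were the higher in both, and the fold change was -0.75 ± 0.19 (adjusted p = 0.00957, edgeR). FEN1, the flap nuclease that trims Okazaki fragments (chr11:61792911-61797238), had 4574, 5661, 5360 and 4655 in Control and 10590, 10717, 8943 and 9056 in DZNep. It was 1.90-fold higher, the largest rise of the 59, with a log2 fold change of 0.93 ± 0.15 (adjusted p = 0.000690, edgeR). LIG1, the ligase that acts after FEN1, went the other way. Its counts of 2302 to 2638 in Control and 1610 to 1971 in DZNep did not overlap, and it fell by 0.50 (SE 0.13, adjusted p = 0.0110, edgeR; 0.0513 without DZNep replicate 1 and 0.0716 with every gene of at least 1 read).

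The subunits of the clamp loader RFC differed in direction. RFC1, the large subunit, fell by 0.48 (adjusted p = 0.0223, edgeR) and RFC4 by 0.46 (0.0421), while RFC2 rose by 0.44 (0.0349). RFC3 and RFC5 were at 0.00 and 0.06 and did not pass. These 3 calls lay close to the threshold. That of RFC1 was lost without DZNep replicate 1, 3 or 4 (adjusted p = 0.102, 0.0544 and 0.0561), with library sizes alone (0.0889) and with every gene of at least 1 read (0.101). That of RFC2 was lost when any of the 4 Control libraries or DZNep replicate 1 or 4 was left out (0.0535 to 0.0968) and with every gene of at least 1 read (0.0897). That of RFC4 was lost when any library other than Control replicate 4 was left out (0.0644 to 0.116). It was also lost with DESeq2's Wald test (0.0557), limma (0.0660), median-ratio normalization (0.0520), library sizes alone (0.154) and every gene of at least 1 read (0.133), and held under 3 of the 15 alternatives.
Of the RPA subunits, RPA1 was at 0.34, RPA2 at -0.06 and RPA3 at -0.39, none past the test. With the replicate block, edgeR's adjusted p was 0.0172 for RPA1 and 0.00657 for RPA3. RPA3 lay at 1891 to 2137 in Control and 1304 to 1810 in DZNep, without overlap, and its adjusted p was 0.0425 without DZNep replicate 4.

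Of the 5 genes of nucleotide supply, TK1 rose and DUT fell. This was close to the background, as 19.1% of all genes tested rose and 21.8% fell. TK1, the S phase thymidine kinase of the salvage pathway (chr17:78174091-78187233), had 5799, 4285, 4480 and 5719 normalized counts in Control and 10135, 7923, 7818 and 11613 in DZNep. Every DZNep library exceeded every Control library, and the level was 1.81-fold higher (log2 fold change 0.86 ± 0.18, adjusted p = 0.00425, edgeR). DUT, which breaks down dUTP and so keeps uracil out of DNA, had 4571, 4151, 4405 and 4103 in Control and 3237, 2537, 2685 and 3687 in DZNep. It fell by 0.53 on the log2 scale (SE 0.15, adjusted p = 0.0181, edgeR), and the call was lost without DZNep replicate 2 (0.0561) or 3 (0.0613) and with every gene of at least 1 read (0.0630). DUT-AS1, on the other strand, covers 14.5% of the exon length of DUT and had 184 counts over all libraries against 29455.
TYMS, which makes thymidylate de novo, was at -0.38 (adjusted p = 0.144, 0.0486 with the block and 0.0113 without Control replicate 4). The exons of ENOSF1 on the other strand cover 39.9% of the exon length of TYMS, and the strand setting of the counting is not given in the sources used here. The ribonucleotide reductase subunits RRM1 and RRM2 were at -0.32 and -0.42 and did not pass (RRM2 with the block, 0.0244, edgeR). The ratio of RRM2 to RRM1 normalized counts was 0.705, 0.812, 0.625 and 1.03 in Control and 0.671, 0.724, 0.634 and 0.842 in DZNep, so the groups overlapped.

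**Figure D4:**
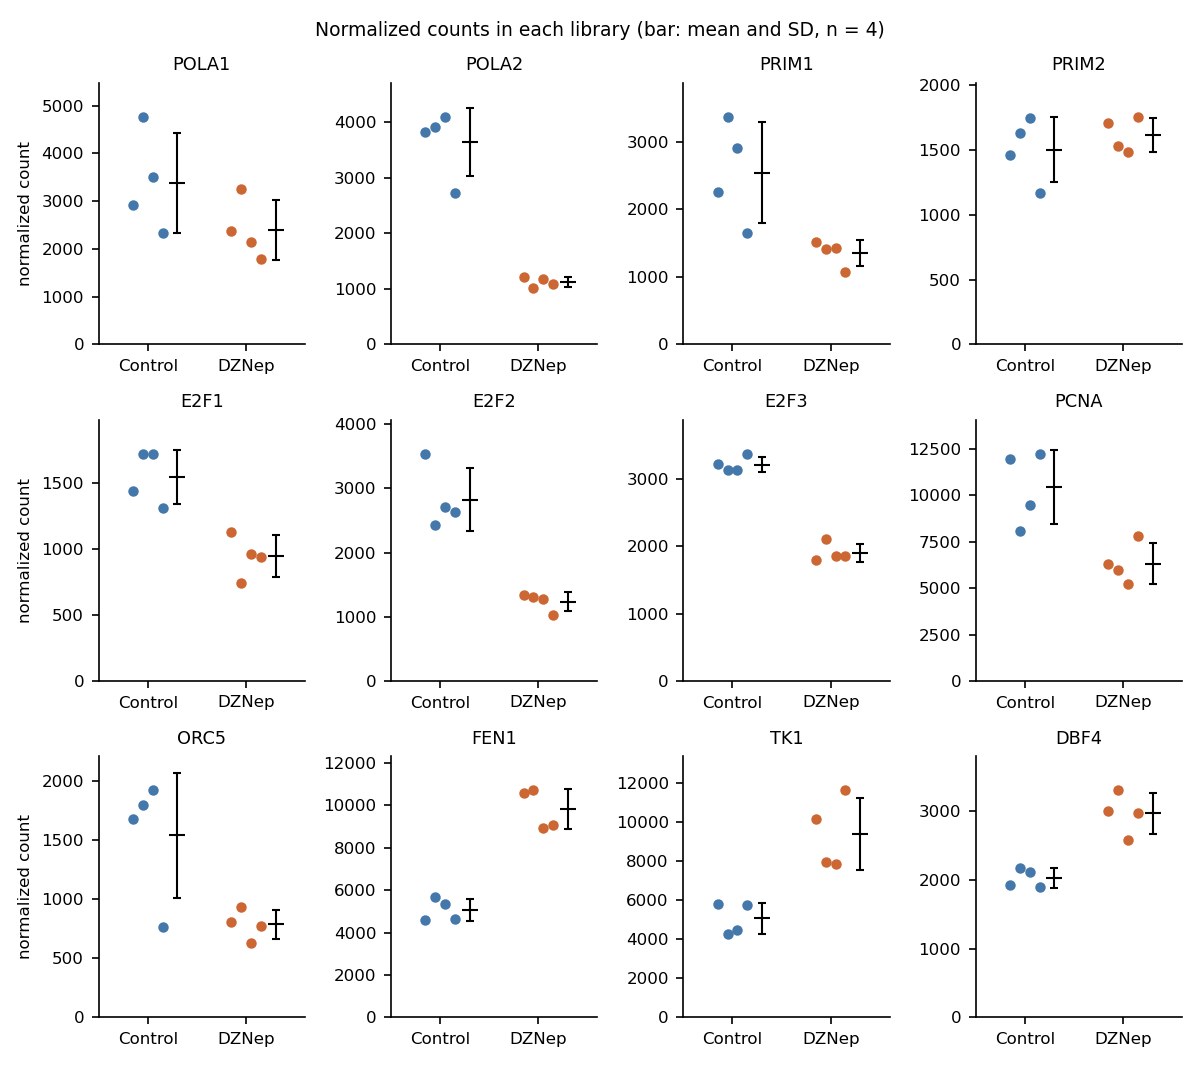
Each panel shows the normalized counts of 1 gene in the 4 Control (blue) and 4 DZNep (orange) libraries, with the mean and SD (n = 4) in black and the axis starting at 0. POLA2, PRIM1, the E2F genes and PCNA are separated downwards and FEN1, TK1 and DBF4 upwards. POLA1, PRIM2 and ORC5 overlap.

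Among the 6 genes of the origin recognition complex, only ORC5 (16.7%) passed the test, and it fell. The share over all genes tested that fell was 21.8%. ORC5 (chr7:104126341-104208047) had 1676, 1792, 1920 and 764 normalized counts in Control and 802, 934, 628 and 775 in DZNep. Control replicate 4 was thus at the DZNep level and the other 3 were far above it. The log2 fold change was -0.997 ± 0.27 (SE, adjusted p = 0.0127, edgeR). ORC1, the subunit whose protein rises and falls with the cell cycle, had 829, 1912, 1659 and 711 in Control and 2031, 2437, 2036 and 1340 in DZNep. It was higher within each replicate number, and the log2 fold change was 0.59 ± 0.32 with an adjusted p of 0.170, or 0.00160 with the block (edgeR).
ORC2 and ORC4 were at 0.33 and 0.41 and ORC3 and ORC6 at -0.20 and -0.41, none past the test. With the block, edgeR's adjusted p was 0.0224 for ORC2, 0.00988 for ORC4 and 0.0173 for ORC6. That of ORC6 was 0.0253 without Control replicate 2 and 0.0416 without DZNep replicate 4. The subunits of this complex thus did not move together. On the RPKM scale (counts per kilobase of exon, scaled to the library total), ORC6 had the highest mean in Control (16.0 ± 3.17, SD) and ORC5 the lowest in DZNep (5.67 ± 0.92). ORC1 was at 10.9 ± 5.73 in Control and 17.1 ± 4.70 in DZNep, so its place among the 6 was not fixed beyond the spread.

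Of the 6 subunits of the MCM helicase, MCM5 (16.7%) rose and 5 did not pass, while 19.1% of all genes tested rose. MCM5 (chr22:35400134-35425431) had 6765, 9228, 6579 and 8637 normalized counts in Control and 12858, 12790, 10072 and 12763 in DZNep. The groups did not overlap, and the log2 fold change was 0.61 ± 0.17 (adjusted p = 0.0154, edgeR). The adjusted p was 0.0518 without Control replicate 1 and 0.0505 without Control replicate 3. MCM4 had the lowest log2 fold change of the 6 at -0.28 ± 0.17, with 14247, 18662, 16568 and 13725 in Control and 13121, 15938, 12138 and 11693 in DZNep. Its groups overlapped and its adjusted p was 0.204, or 0.0438 with the block (edgeR).
MCM2 held 9911, 19966, 14504 and 9700 in Control and 21190, 23889, 18872 and 16470 in DZNep. It was higher within every replicate number, with a log2 fold change of 0.55 ± 0.25 (adjusted p = 0.104, 0.00195 with the block and 0.0144 without Control replicate 2, edgeR). MCM7 was at 0.31 (0.0373 with the block), and MCM3 and MCM6 at 0.06 and -0.23. The 6 proteins form a ring of equal parts, while the transcript levels differed. On the RPKM scale, the Control means ran from 27.8 ± 4.61 (SD) for MCM5 to 99.3 ± 25.7 for MCM7. In DZNep they ran from 36.3 ± 6.39 for MCM4 to 129 ± 21.6 for MCM7. The neighbours MCM3 (96.4 ± 21.7) and MCM7 in Control lay within their spread. Exon lengths here join all annotated exons of a gene, whichever of them the cells use.

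None of the 3 genes that control loading passed the test. CDC6 was at -0.04 ± 0.16 (adjusted p = 0.856, edgeR), with 5525, 5980, 6378 and 4195 normalized counts in Control and 5327, 6309, 4920 and 5281 in DZNep. CDT1, which loads the helicase with CDC6, was at 0.00 (SE 0.19, adjusted p = 0.988), with 7489 to 10694 in Control and 7428 to 11257 in DZNep. GMNN (geminin), which binds CDT1 and prevents a second loading, had 3279, 3321, 3348 and 2727 in Control and 3837, 4675, 3339 and 4898 in DZNep. Its groups overlapped through DZNep replicate 3, and the log2 fold change was 0.37 ± 0.16. The adjusted p was 0.0848 in edgeR's test, 0.0299 with the block and 0.0484 without DZNep replicate 3. The ratio of CDT1 to GMNN counts was 3.26, 2.25, 2.83 and 3.92 in Control and 2.90, 1.59, 2.74 and 2.30 in DZNep. The means were 3.07 ± 0.70 and 2.38 ± 0.59 (SD, n = 4), and the groups overlapped.

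Of the 8 genes of origin firing, 2 rose and 1 fell, while 19.1% of all genes tested rose and 21.8% fell. With 8 genes, the share that rose was above the background by less than 1 gene, and no difference was tested. The 2 that rose encode the 2 parts of the kinase that phosphorylates the MCM ring. CDC7, the catalytic subunit (chr1:91500851-91525764), had 3749, 5109, 5235 and 2773 normalized counts in Control and 6108, 7603, 6675 and 5717 in DZNep, without overlap. Its log2 fold change was 0.60 ± 0.21 (adjusted p = 0.0427, edgeR), and leaving out Control replicate 1 or 4 or DZNep replicate 1, 2 or 3 gave 0.0734 to 0.113. It was 0.0694 with library sizes alone and 0.0660 with every gene of at least 1 read. DBF4, its activator (chr7:87876216-87909553), had 1915, 2170, 2114 and 1891 in Control and 2999, 3299, 2576 and 2972 in DZNep. The groups were well apart and the log2 fold change was 0.52 ± 0.13 (adjusted p = 0.0100, edgeR).
CDC45 joins the MCM ring to make the active helicase, and its transcript fell. It had 3828, 4751, 4216 and 3181 in Control and 2745, 2874, 2671 and 2864 in DZNep, with a log2 fold change of -0.55 ± 0.15 (adjusted p = 0.0143, edgeR; 0.0594 without DZNep replicate 1, 0.0674 with library sizes alone and 0.0625 with every gene of at least 1 read). MCM10, a factor of helicase activation, was at 0.31 and did not pass (0.0219 with the block). GINS1, GINS2 and GINS3, other parts of the active helicase, were at 0.20, 0.21 and 0.21, and GINS4 was at -0.28 (0.0421 with the block, edgeR). None of the 4 passed without the block. On the RPKM scale, GINS2 was the highest of the 4 in both groups (32.3 ± 2.11 and 39.3 ± 3.23, SD) and GINS1 the lowest (5.13 ± 0.93 and 6.23 ± 0.95).

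The 6 G1/S cyclins and kinases did not pass the test, and none did with the block. CCNE1 (cyclin E1), a partner of CDK2, had 623, 704, 632 and 481 normalized counts in Control and 623, 741, 727 and 627 in DZNep (log2 fold change 0.13 ± 0.15, adjusted p = 0.541, edgeR). CCNE2 (cyclin E2) had 159, 375, 349 and 88.1 in Control and 219, 270, 219 and 117 in DZNep. Its counts were low, and its log2 fold change of -0.26 ± 0.43 (adjusted p = 0.655, edgeR) has a wide error. The exons of INTS8 on the other strand cover 37.0% of the exon length of CCNE2 and had 13553 counts in all against 1929, so its values are uncertain.
CCND1 (cyclin D1) and its kinases CDK4 and CDK6 were at -0.19, -0.18 and -0.05, and CDK2 was at -0.12. CDK6 ranged from 1364 to 6062 in Control and from 1524 to 4744 in DZNep, and the standard error of its log2 fold change was 0.46, the largest of the 59. The exons of TSPAN31 on the other strand cover 44.2% of the exon length of CDK4. The CCNE1 to CCNE2 ratio was 3.92, 1.88, 1.81 and 5.46 in Control and 2.85, 2.75, 3.31 and 5.36 in DZNep. The CDK6 to CDK4 ratio was 0.499, 0.851, 0.604 and 0.519 in Control and 0.560, 0.920, 0.948 and 0.390 in DZNep. Both ratios overlapped between the groups.

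The fork protection members CLSPN (claspin) and TIPIN, whose proteins carry the signal of a stalled fork, did not pass the test. Outside the members, TIMELESS, listed among the other replication genes, fell by 1.18 on the log2 scale (SE 0.20, adjusted p = 0.00115, edgeR). Its groups did not overlap, at 3918 to 6818 in Control and 2110 to 2856 in DZNep. CLSPN had 8289, 3285, 3437 and 10354 normalized counts in Control and 3297, 3274, 2700 and 4896 in DZNep. Control replicates 1 and 4 were thus far above all other libraries, while replicates 2 and 3 lay within the DZNep range. Its log2 fold change was -0.87 ± 0.37, with an adjusted p of 0.0888, or 0.00278 with the block, 0.0254 without Control replicate 2 and 0.0407 without Control replicate 3 (edgeR). TIPIN had 2295, 2057, 1960 and 1809 in Control and 2397, 2461, 1911 and 2725 in DZNep, with a log2 fold change of 0.20 ± 0.15 (adjusted p = 0.317, edgeR).

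The Control libraries differed among themselves in these genes, by replicate number. For 39 of the 59 genes (66.1%), replicates 1 and 4 both lay below replicates 2 and 3, against 35.2% of all genes tested, and for 10 (16.9%) both lay above, against 35.6%. In DZNep the counts were 12 (20.3%) and 15 (25.4%), against 27.5% and 27.8%. The median over members of the SD as a percentage of the mean was 17.0% in Control and 13.0% in DZNep, and it was larger in Control for 40 genes. The widest spread was that of CDK6, whose highest Control library was 4.44 times its lowest. CCNE2 (4.26), CLSPN (3.15), CDK4 (2.71), ORC1 (2.69) and ORC5 (2.51) followed. Control replicates 1 and 4 were also the Control libraries with the larger mitochondrial shares. DZNep replicates 1 and 4 likewise had the larger shares of their group (7.04% and 10.1%, against 4.25% and 4.44% in replicates 2 and 3). The part of the mitochondrial share in these levels was not tested.

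**Figure D5:**
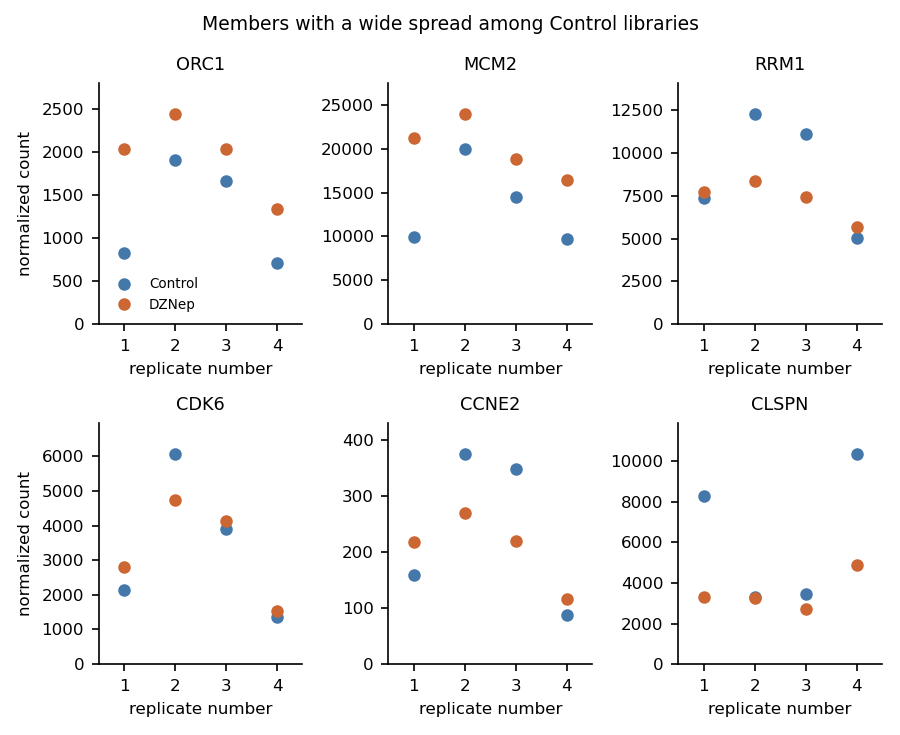
Normalized counts of 6 genes are plotted by replicate number, Control in blue and DZNep in orange, with each axis starting at 0. ORC1, MCM2, RRM1, CDK6 and CCNE2 are lower in Control replicates 1 and 4 than in 2 and 3, and CLSPN is higher there (8289 and 10354 against 3285 and 3437).

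Of 64 other genes of the same processes, 14 fell and 6 rose, 8 and 1 of them with an absolute log2 fold change over 1 as well. The shares were 21.9% lower and 9.38% higher, against 21.8% and 19.1% of all genes tested, and 12.5% and 1.56% with the fold threshold, against 13.5% and 10.6%. The falls were thus near the background. With the block, 24 (37.5%) fell and 12 (18.8%) rose, against 30.2% and 28.8%. Among 29 other replication genes, 8 (27.6%) fell and 2 (6.9%) rose. WDHD1, which couples polymerase alpha to the helicase, had 2724, 4282, 4159 and 1844 normalized counts in Control and 761, 1070, 998 and 618 in DZNep, a log2 fold change of -1.94 ± 0.29 (adjusted p = 0.000501, edgeR). ASF1B, a histone chaperone of replicating chromatin, was at 3735 to 4467 in Control and 1060 to 1604 in DZNep (-1.61 ± 0.17, adjusted p = 7.26e-05). PCLAF, a partner of PCNA, was at 1470 to 4392 in Control and 723 to 1458 in DZNep (-1.42 ± 0.37, adjusted p = 0.0118). For all 3 the groups did not overlap. Among 10 other nucleotide supply genes, 2 fell and 1 rose, none with a log2 fold change beyond 1.

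Among 25 other G1/S regulators, 4 fell, 3 rose and 18 did not pass. Both shares were below those of all genes tested, of which 21.8% fell and 19.1% rose. RB1, the pocket protein that restrains the E2F factors, had 1987, 2994, 2579 and 1613 in Control and 939, 1099, 959 and 690 in DZNep, a log2 fold change of -1.34 ± 0.22 (adjusted p = 0.000903, edgeR). E2F5, a repressor E2F, fell by 1.57 (SE 0.22, adjusted p = 0.000346) from 516 to 971 normalized counts to 248 to 273. TFDP1, a dimer partner of the E2F proteins, fell by 1.02 (SE 0.16, adjusted p = 0.000691).
CDKN2D, an inhibitor of CDK4 and CDK6, rose by 1.40 (SE 0.18, adjusted p = 0.000247, edgeR), from 202 to 295 in Control to 565 to 802 in DZNep. CDKN1B (p27), an inhibitor of CDK2, rose by 0.48 (SE 0.17, adjusted p = 0.0453), and the call was lost when Control replicate 1, 2 or 4 or DZNep replicate 1, 2 or 3 was left out (0.0538 to 0.112), with library sizes alone (0.0796) and with every gene of at least 1 read (0.103). CDKN1A (p21), the p53 target of the same family, was at -0.44 ± 0.24 (adjusted p = 0.168, 0.0102 with the block and 0.0180 without Control replicate 4). MYC was at -0.22 ± 0.20 (adjusted p = 0.415, edgeR).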

How the data were processed

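RNAseq was measured in 8 HEK293T libraries, 4 per group, grouped by the treatment and replicate number in the labels. Paired reads of 150 bp were trimmed by the authors (Trimmomatic 0.36) and aligned to GRCh38 (STAR 2.5.2b). Reads that fell uniquely in exons were counted per gene with featureCounts of Subread 1.5.2. They deposited raw counts for 57500 genes and a second table of signal, the counts divided by 1 DESeq2 size factor per library (normalized counts), for 19118 genes. The annotation release and strandedness are not given in the sources used here, so overlapping genes are uncertain.

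R 4.3.3 with edgeR 4.0.16 was used. Raw counts were tested with edgeR's quasi-likelihood method (TMM, filterByExpr, Benjamini-Hochberg over 19171 genes). Thresholds were an adjusted p-value under 0.05, with or without an absolute log2 fold change over 1. The study used the Wald test of DESeq2 (here 1.42.0), run as an alternative beside limma 3.58.1 on log2(normalized count + 1), 2 other normalizations, 2 other filters, the replicate block and leaving out each library. Symbols and coordinates are from GENCODE 44 (GRCh38), matched for 56410 identifiers, and promoter windows from RefSeq (GRCh38.p14). The members, gene lists, motifs and rules were chosen with earlier results of these data known. Values in every library were given for members past both thresholds and for the highest and lowest log2 fold change of each functional group. Of other pathway genes, up to 3 per list and direction past both thresholds were named, with CDKN1A, CDKN1B, RB1 and MYC. The other members given by library, and the other genes named, were chosen after their values were seen.

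The labels number the replicates 1 to 4 in both groups. Each gene's deviation from its group mean was compared between the Control and DZNep libraries that share a number, and r over 19171 genes was 0.14, 0.49, 0.43 and 0.67. All exceeded 0.1, which was taken as pairing. Libraries with different numbers were not compared in this way, so these values cannot show that the pairing follows the number. The main test, like that of the study, has no term for the replicate number, and the replicate block is given beside the results whose call it changes. Library totals were 25043058 to 44902779 counts. Replicates of a group differed by more than sampling noise, so each counted as 1 replicate. They are biological replicates per the study's methods.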

Additional observations from a re-analysis of the deposited data

Results flagged for a closer look

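In DZNep replicate 3, MCM5 had a normalized count of 10072, far from the other 3 DZNep libraries (12763 to 12858), the gap being 0.966 of the range of the group. In Control replicate 4, GMNN had a normalized count of 2727, far from the other 3 Control libraries (3279 to 3348), with a gap of 0.890 of the range. Both exceed Dixon's critical value for 4 libraries. The rule was applied to 118 groups (59 genes in 2 groups of 4 libraries), and chance flags about 1 in 20 groups, or 5.9 here.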

How the results depend on the processing

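Of the 19 members past the test, 10 (ORC5, DBF4, POLA2, PRIM1, PCNA, FEN1, TK1, E2F1, E2F2 and E2F3) passed it under all 15 alternatives and 9 lost it under at least 1. With the replicate block, 14 members were higher and 21 lower at the adjusted p alone, and 12 and 24 of the other pathway genes. With at least 1 read in any library (40246 genes tested), 8 members were lower. With library sizes alone, 1 member was higher past both thresholds, and the median of all genes moved from -0.03 to 0.05. With at least 10 reads in every library (15870 genes tested), 1141 of all genes were higher past both thresholds, against 2041. Leaving out each library gave 2 to 4 members lower past both thresholds, the 4 without Control replicate 4. At the adjusted p alone it gave 3 to 6 members higher (3 without Control replicate 1) and 8 to 15 lower (8 without DZNep replicate 1). Of the other pathway genes it gave 2 to 7 higher, with 2 without Control replicate 1 and 3 without DZNep replicate 1 or 2, and 12 to 17 lower. The median log2 fold change of the members ran from -0.21 to -0.01. Changes of sign came only in 11 members, none past the test. Without each library in turn, the log2 fold change ran from -0.017 to 0.13 for MCM3, -0.16 to 0.030 for CDC6, -0.11 to 0.11 for CDT1, -0.031 to 0.16 for PRIM2, -0.098 to 0.12 for RFC3, -0.0092 to 0.12 for RFC5, -0.13 to 0.015 for RPA2, -0.55 to 0.016 for CCNE2, -0.31 to 0.023 for CDK2, -0.40 to 0.018 for CDK4 and -0.32 to 0.39 for CDK6. With library sizes alone it was 0.019 for CDC6, 0.075 for CDT1, 0.0056 for RPA2 and 0.0084 for CDK6. For CDT1 it was 0.020 with median-ratio normalization, 0.028 with at least 1 read in any library, 0.025 with at least 10 reads in every library, 0.027 with DESeq2 and 0.018 with limma. For CDK6 it was 0.041 with the block and 0.071 with limma. The cause of these shifts was not tested.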
